A study of Mus musculus with 15 samples.

Results

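The 36 genes described here encode glutamate receptors and their auxiliary subunits. They were taken by name from a list of AMPA, NMDA, kainate and delta receptor subunits, metabotropic receptors, transmembrane AMPA receptor regulatory proteins (TARPs), cornichons, Shisa proteins and Neto proteins. They make up 36 of the 21938 protein-coding genes of the GENCODE annotation, and the rule that chose them uses names and no scores, although earlier results of these data were known when the list was made. For each gene, every summit of the WT H3K4me3 peak list within 1 kb of any annotated transcription start site (TSS) was taken as a promoter summit. The highest-scoring promoter summit is called the best one, and a gene with any promoter summit is called marked. Summits inside a gene but more than 1 kb from all of its own TSSs are called body summits.

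H3K4me3, trimethylation of lysine 4 of histone H3, was profiled by ChIP-seq in nuclei from the amygdala of adult male mice, with 20000 nuclei per reaction. The series holds 11 H3K4me3 samples, of which 2 came from WT mice and 3 each from Kmt2a-HET, Kdm5c-KO and DM mice, and 4 input samples, 1 for each genotype. The study asked how the loss of a methyltransferase and of a demethylase of this mark alters it alone and together. The values below come from 1 list of summits that the authors called on both WT mice together.

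All mice were F1 hybrids of a cross between 129S1/SvImJ Kmt2a+/- males and C57BL/6J Kdm5c+/- females. WT males inherited no mutant allele, Kmt2a-HET males carried 1 Kmt2a null allele, Kdm5c-KO males lacked their only copy of the X-linked Kdm5c gene, and DM males carried both mutations. KMT2A writes methylation of H3K4 and KDM5C removes it. The mutant samples were not analysed here. Because the WT list pools 2 mice, it has 1 value per summit and no spread between replicates, so differences between genes could not be set against replicate error, and no test was run. The nuclei were not sorted by cell type, and a mark in fewer cells cannot be told apart from a weaker mark in each cell.

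Glutamate is the main excitatory transmitter of the brain. AMPA receptors carry the fast synaptic current, NMDA receptors open when glutamate release and depolarization coincide and admit calcium, kainate receptors act on both sides of the synapse, and metabotropic receptors signal through G proteins. TARPs, cornichons and Shisa proteins bind AMPA receptors and set their trafficking and gating, and Neto proteins do the same for kainate receptors. In the amygdala, plasticity of glutamatergic synapses is known for its part in fear learning. H3K4me3 gathers on nucleosomes around the TSSs of active and poised genes, most often beside stretches rich in CpG dinucleotides.

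On chromosomes 1 to 19, X and Y the list had 24139 of its 24162 summits. Each had a score, taken to be the −log10 q-value of its enrichment over input, so that a higher score stands for a more certain enrichment at that depth and not for an amount of H3K4me3. Scores ran from 1.18 to 342 with a median of 102 (quartiles 15.0 and 201). The number of reads behind each score is not given by the list. Promoter summits were found at 5 of 5 general neuronal marker genes, with best scores of 219 to 284. They were also found at 3 of 3 markers of excitatory neurons (105 to 273) and 3 of 3 of inhibitory neurons (177 to 200). The 5 of 5 marked astrocyte markers ran from 29.2 to 174 and the 5 of 5 marked oligodendrocyte markers from 81.1 to 183. In each of these glial groups 3 markers scored below the median of the list. The 5 microglial and 4 endothelial markers also had promoter summits, but with best scores of only 11.8 to 28.9 and 15.5 to 33.8. Of 10 markers of cerebellum, retina, liver, heart and pancreas, 1 had a promoter summit.

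Of the 36 glutamate receptor and auxiliary genes, 34 had a promoter summit, or 94.4%, against 64.7% of all protein-coding genes. The exceptions were Grm5 and Cacng8, both of which had a summit above the median of the list somewhat farther downstream. The best promoter scores of the 34 marked genes had a median of 186 (quartiles 130 and 228) and ran from 3.89 to 290. The same median over all 14197 marked protein-coding genes was 195 (quartiles 130 and 230). The marked glutamate genes thus had scores spread over about the same range as marked genes in general. The best score reached the median of the list in 29 genes, or 29 of 36 against 52% of all protein-coding genes. The 5 marked genes below it were Grin2c, Grin3b, Grm6, Cacng4 and Shisa6.

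**Figure D1:**
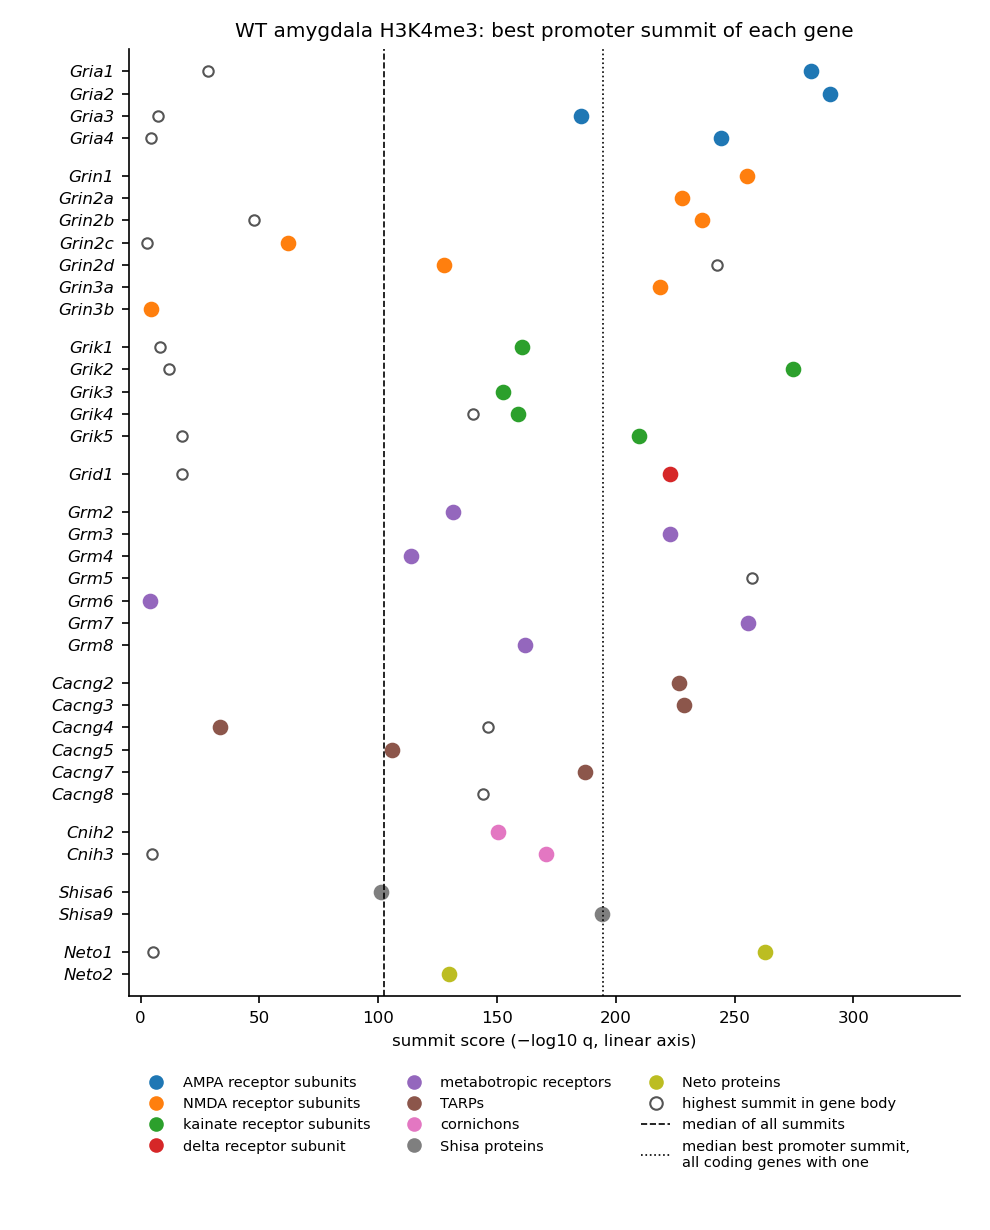
Score of the best promoter summit of each gene (filled circles, coloured by the role of the protein) and of its highest body summit (open circles) in the pooled list of 2 WT mice; the dashed line is the median of all summits and the dotted line the median best promoter score of all marked protein-coding genes. The 4 AMPA subunit genes sit between 185 and 290, Grin3b and Grm6 lie near 0, and Grm5 and Cacng8 have open circles only, at 257 and 144.

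The 4 genes for AMPA receptor subunits were all marked, and their best scores had the highest median of the groups with more than 1 gene, 263. Gria2, whose subunit makes AMPA receptors nearly impermeable to calcium, had the highest score of all 36 genes, 290, at chr3:80801946. This exceeded 99.4% of the summits in the list. Gria1, which encodes the subunit most often linked to activity-dependent insertion at synapses, followed with 282 at chr11:57012746, above 99.0% of the list. Both summits lay in intron 1 of the longest coding transcript. Gria4 scored 244 at chr9:4795855 and had another, weak promoter summit of 6.20 located 756 bp upstream of its outermost TSS. Gria3, on the X chromosome, had the lowest score of the group, 185 at chrX:41402028, which was still above 69.1% of the list. Male nuclei carry a single X chromosome, and the effect of copy number on the score was not tested.

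The promoters of Gria2 and Gria1 are shown because these genes had the highest scores but differed in CpG content. Each sequence runs from 180 bases before to 20 bases after a TSS, on the strand of the gene in GRCm38, and CG dinucleotides are in capitals. The TSS is the most upstream one of the marked group that holds the TSS nearest to the summit.
Gria2 (chr3:80802816-80803015, minus strand): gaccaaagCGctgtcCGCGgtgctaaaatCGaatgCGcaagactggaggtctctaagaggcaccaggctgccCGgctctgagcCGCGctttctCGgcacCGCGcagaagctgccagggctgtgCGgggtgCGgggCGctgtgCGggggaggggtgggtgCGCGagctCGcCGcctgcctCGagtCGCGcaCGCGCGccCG
Gria1 (chr11:57012866-57013065, plus strand): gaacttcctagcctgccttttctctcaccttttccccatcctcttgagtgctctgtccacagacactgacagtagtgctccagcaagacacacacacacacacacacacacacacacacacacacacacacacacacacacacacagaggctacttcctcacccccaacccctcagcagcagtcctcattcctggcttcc
The Gria2 window holds 26 CG dinucleotides in 200 bases. The Gria1 window holds 0 and contains a run of CA repeats. Windows of this kind had a median of 13 CG dinucleotides over all marked protein-coding genes (quartiles 8 and 19) and of 2 over unmarked ones (quartiles 1 and 4). The Gria1 window is placed at the TSS nearest to the summit, and this TSS lies 1659 bp inside the gene. An outer group of Gria1 TSSs was also within 1 kb of the summit, so the windows set an inner Gria1 TSS beside the outermost Gria2 TSS. In the 500 bp on each side of the outermost TSS, the ratio of observed to expected CpG was 0.215 in Gria1 and 0.686 in Gria2. Measured from the TSS of the principal transcript in the annotation, the Gria1 summit lay 790 bp downstream. In the 500 bp centred on the summit itself, the ratio of observed to expected CpG was 0.164 in Gria1 and 0.389 in Gria2, both below the median of 0.701 over the best promoter summits of all marked genes.

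All 7 genes for NMDA receptor subunits were marked, with a median best score of 219, but their scores ranged from 4.52 to 255. The highest scores of the family were those of Grin1, Grin2b, Grin2a and Grin3a. Grin1, which encodes the subunit that every NMDA receptor needs, scored 255 at chr2:25318592, in intron 1. Grin2b and Grin2a, whose subunits bind glutamate and set channel kinetics, scored 236 at chr6:136171948 and 228 at chr16:9994440. Grin3a, whose glycine-binding subunit lowers calcium entry, scored 219 at chr4:49845381, in the 5′ UTR of exon 1. The remaining members of the family were lower. Grin2d, best known from interneurons and early development, scored 128 at chr7:45870664, and Grin2c, best known from the cerebellum, scored 61.9 at chr11:115266644. Grin3b, known from motor neurons, had a score of 4.52 at chr10:79970835, which exceeded only 6.78% of the list.

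Grin1 was the gene whose promoter summits lay farthest apart. Besides the strong summit near the outermost TSS, a weak promoter summit of 12.8 stood at chr2:25305238, in intron 6, 138 bp upstream of the TSS of a processed transcript and 13354 bp from the strong summit. Both promoters are shown for comparison, with CG dinucleotides in capitals and the same limits around the TSS as above.
Grin1, outer promoter (chr2:25319168-25319367, minus strand): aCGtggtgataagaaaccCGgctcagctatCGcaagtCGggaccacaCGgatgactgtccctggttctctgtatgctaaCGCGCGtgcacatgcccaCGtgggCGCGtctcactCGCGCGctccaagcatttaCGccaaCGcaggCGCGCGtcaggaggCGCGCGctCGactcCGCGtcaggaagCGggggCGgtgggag
Grin1, inner promoter (chr2:25305378-25305577, minus strand): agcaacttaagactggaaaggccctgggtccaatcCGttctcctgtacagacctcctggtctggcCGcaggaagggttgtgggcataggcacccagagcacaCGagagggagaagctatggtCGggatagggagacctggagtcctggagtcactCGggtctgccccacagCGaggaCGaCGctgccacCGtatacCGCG
The outer window holds 27 CG dinucleotides and the inner one 11. The inner window has a ratio of observed to expected CpG of 0.595, against 1.28 for the outer one.

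The lowest scores among the 34 marked genes were those of Grm6 and Grin3b, whose promoters are shown next, with the same limits and capitals.
Grm6 (chr11:50850505-50850704, plus strand): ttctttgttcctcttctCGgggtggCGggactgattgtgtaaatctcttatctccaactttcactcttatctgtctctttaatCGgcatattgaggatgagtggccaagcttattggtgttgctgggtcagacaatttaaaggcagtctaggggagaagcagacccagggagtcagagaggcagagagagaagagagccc
Grin3b (chr10:79970535-79970734, plus strand): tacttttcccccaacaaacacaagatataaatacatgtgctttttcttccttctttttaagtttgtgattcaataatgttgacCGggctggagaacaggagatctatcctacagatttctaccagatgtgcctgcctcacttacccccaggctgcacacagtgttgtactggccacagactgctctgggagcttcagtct
The Grm6 window has 3 CG dinucleotides and the Grin3b window 1, close to the median of 2 for unmarked genes. At their summits, however, the ratio of observed to expected CpG was 0.988 in Grm6 and 0.616 in Grin3b. The Grm6 value was the highest of the 34 best summits.

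All 5 genes for kainate receptor subunits were marked, and their scores lay between 152 and 275 with a median of 161. Grik2, whose subunit can form channels alone, stood apart with 275 at chr10:49788547, above 98.3% of the list. It also had a strong promoter summit of 232 at chr10:49782947, in intron 2, 312 bp downstream of a further TSS and 5600 bp from the best summit. Grik2 was the only one of the 36 genes with 2 promoter summits more than 2 kb apart that both scored above the median of the list. Grik5 scored 210 at chr7:25071900, and the TSS of Zfp574 was 667 bp away, farther out than the Grik5 TSSs, so the summit could not be assigned to either gene alone. Grik1 scored 161 at chr16:88289823, Grik4 159 at chr9:42943838 and Grik3 152 at chr4:125491479. Grik4 and Grik5 encode subunits that form channels only together with other kainate subunits. The outer promoter of Grik2 is shown because the gene has strong summits at separate TSSs, with CG dinucleotides in capitals.
Grik2, outer promoter (chr10:49788747-49788946, minus strand): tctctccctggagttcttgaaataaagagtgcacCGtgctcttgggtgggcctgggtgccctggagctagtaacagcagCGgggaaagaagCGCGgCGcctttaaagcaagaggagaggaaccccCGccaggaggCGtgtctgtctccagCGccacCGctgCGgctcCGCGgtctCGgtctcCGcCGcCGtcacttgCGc
This window holds 17 CG dinucleotides, against a median of 13 for marked genes. A TSS of a transcript of another annotated locus, Gm48123, lay 280 bp from the Grik2 summit. Grid1, which encodes a delta receptor subunit that bridges the synaptic cleft through cerebellins and neurexins, scored 223 at chr14:34820706 in intron 1.

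Of the 7 genes for metabotropic receptors, 6 were marked, with a median best score of 146 and a range from 3.89 to 256. Grm7, a presynaptic receptor, scored 256 at chr6:110646151 in the coding part of exon 1, where an antisense locus, Gm20387, has a TSS 235 bp away. Grm3, found on both neurons and astrocytes, scored 223 at chr5:9724671, while Grm2, its closest relative, scored 131 at chr9:106655873. Grm8 scored 162 at chr6:28133614. Grm4 scored 114 at chr17:27512486, 920 bp inside the gene from its closest TSS, and a weak summit of 18.3 stood only 14 bp from another of its TSSs. Grm6, the receptor of retinal ON bipolar cells, had a score of 3.89 at chr11:50851402, above 4.52% of the list. This was the lowest best score of the 34 marked genes.

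Grm5, the postsynaptic receptor that signals through phospholipase C, had no summit within 1 kb of its 7 annotated TSSs. Its nearest summit lay at chr7:87586706, 2308 bp downstream of the nearest TSS and 2313 bp from that of the principal transcript. This summit scored 257, above 95.3% of the list and above every promoter summit of the other metabotropic receptor genes. Cacng8, the gene of a TARP abundant in the forebrain, likewise had no promoter summit but a body summit of 144 at chr7:3392071, in intron 2, 1388 bp downstream of its outermost TSS. When RefSeq TSSs were added to those of GENCODE, neither gene gained a promoter summit. The annotated promoters of both genes and the 200 bases around the strong Grm5 summit are shown because the mark and the annotation were offset there, with CG dinucleotides in capitals.
Grm5, at the outermost TSS (chr7:87583988-87584187, plus strand): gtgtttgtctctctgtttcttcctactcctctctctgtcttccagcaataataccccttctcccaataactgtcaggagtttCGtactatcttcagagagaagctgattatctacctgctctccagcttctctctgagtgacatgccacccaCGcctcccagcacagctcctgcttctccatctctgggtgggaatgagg
Grm5, at the summit (chr7:87586606-87586805, plus strand): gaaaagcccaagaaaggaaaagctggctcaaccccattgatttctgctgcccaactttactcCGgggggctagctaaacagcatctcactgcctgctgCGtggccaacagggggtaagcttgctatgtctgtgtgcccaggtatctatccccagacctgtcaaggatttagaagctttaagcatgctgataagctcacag
Cacng8, at the outermost TSS (chr7:3390503-3390702, plus strand): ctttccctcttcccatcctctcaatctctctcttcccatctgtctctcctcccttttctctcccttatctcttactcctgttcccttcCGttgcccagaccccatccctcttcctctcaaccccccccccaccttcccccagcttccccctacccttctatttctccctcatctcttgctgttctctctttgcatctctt
The Grm5 windows hold 2 CG dinucleotides at the TSS and 2 at the summit, and the Cacng8 window holds 1. All 3 are at or below the median of 2 for unmarked promoters. The summit sequence was chosen after the values had been seen.

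Among the genes for TARPs, 5 of 6 were marked, with a median best score of 187. Cacng3 and Cacng2, the latter encoding stargazin, scored 229 at chr7:122671999 and 227 at chr15:78120042. The Cacng2 summit lay 14 bp upstream of its only TSS, and the antisense locus A730060N03Rik has a TSS 336 bp away. Cacng7 scored 187 at chr7:3333380 and had another promoter summit of 85.6 on the upstream side. Cacng5 scored 106 at chr11:107914886, just above the median of the list. Cacng4 was the lowest, with 33.3 at chr11:107795115, 558 bp upstream of its TSS. However, a body summit of 146 lay at chr11:107793524, outside the window, 1033 bp downstream of that TSS and 342 bp from a TSS of the noncoding locus Gm11650. With a window of 3 kb the best score of Cacng4 was 146. Cacng7 and Cacng8 lie close together on chromosome 7, and only the former was marked.

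The remaining auxiliary subunits were all marked. The cornichon genes had similar scores, with 171 for Cnih3 at chr1:181353712 and 151 for Cnih2 at chr19:5097532. The Cnih2 summit was 850 bp downstream of the nearest TSS and had the lowest ratio of observed to expected CpG of the 34 best summits, 0.160. Shisa9, whose protein speeds the desensitization of AMPA receptors, scored 194 at chr16:11985166. Shisa6, whose protein keeps them from desensitizing, scored 101 at chr11:66525458 and had a nearly equal promoter summit of 94.5 on the other side of its outermost TSS. Neto1 scored 263 at chr18:86396003 and Neto2 130 at chr8:85701222. The Neto1 summit lay 182 bp from the TSS of a processed transcript but 1051 bp from that of the principal transcript. With TSSs of coding transcripts alone, Neto1 was not marked. Neto2 also had a promoter summit of 78.0, and the microRNA gene Mir8109 has its TSS between both Neto2 summits. Taken by role, 23 of 24 receptor genes were marked with a median of 210, and 11 of 12 auxiliary genes with a median of 171.

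The position of the summits relative to the TSS was examined next. In 27 of the 34 marked genes the best promoter summit lay downstream of the nearest TSS, against 79.3% of all marked protein-coding genes. The median distance was 286 bp downstream (quartiles 126 and 552), compared with 171 bp over all marked genes (quartiles 49 and 327) and 235 bp over 20 marked genes of GABA and glycine receptor subunits. The best summit was more than 500 bp downstream in 10 of 34 genes, or 29.4%, against 11.6% of all marked genes and 2 of 20 GABA and glycine receptor genes. These 10 genes included Gria2 at 633 bp, Grin1 at 503 bp, Grm7 at 569 bp, Grik3 at 779 bp and Cnih2 at 850 bp. Measured from the TSS of the principal transcript, the medians were 517 bp, 256 bp and 392 bp, respectively. The distances depended on the TSSs used. With RefSeq TSSs added, 7 of 34 genes, or 20.6%, had the best summit more than 500 bp downstream, against 9.8% of all marked genes and 2 of 20 GABA and glycine receptor genes, and the medians were 231 bp, 159 bp and 232 bp, respectively. The distance of Grm4 then fell from 920 to 394 bp, that of Grin2c from 599 to 331 bp and that of Cacng3 from 581 to 255 bp, and the Gria1 summit lay 64 bp downstream of a TSS instead of 300 bp upstream. Of the 34 best summits, 20 lay in intron 1 of the longest coding transcript, 4 in exon 1, 8 upstream of that transcript and 2 in a later exon or intron. Members share the annotation and the list, and genes are not replicates, so these shares were not tested.

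**Figure D2:**
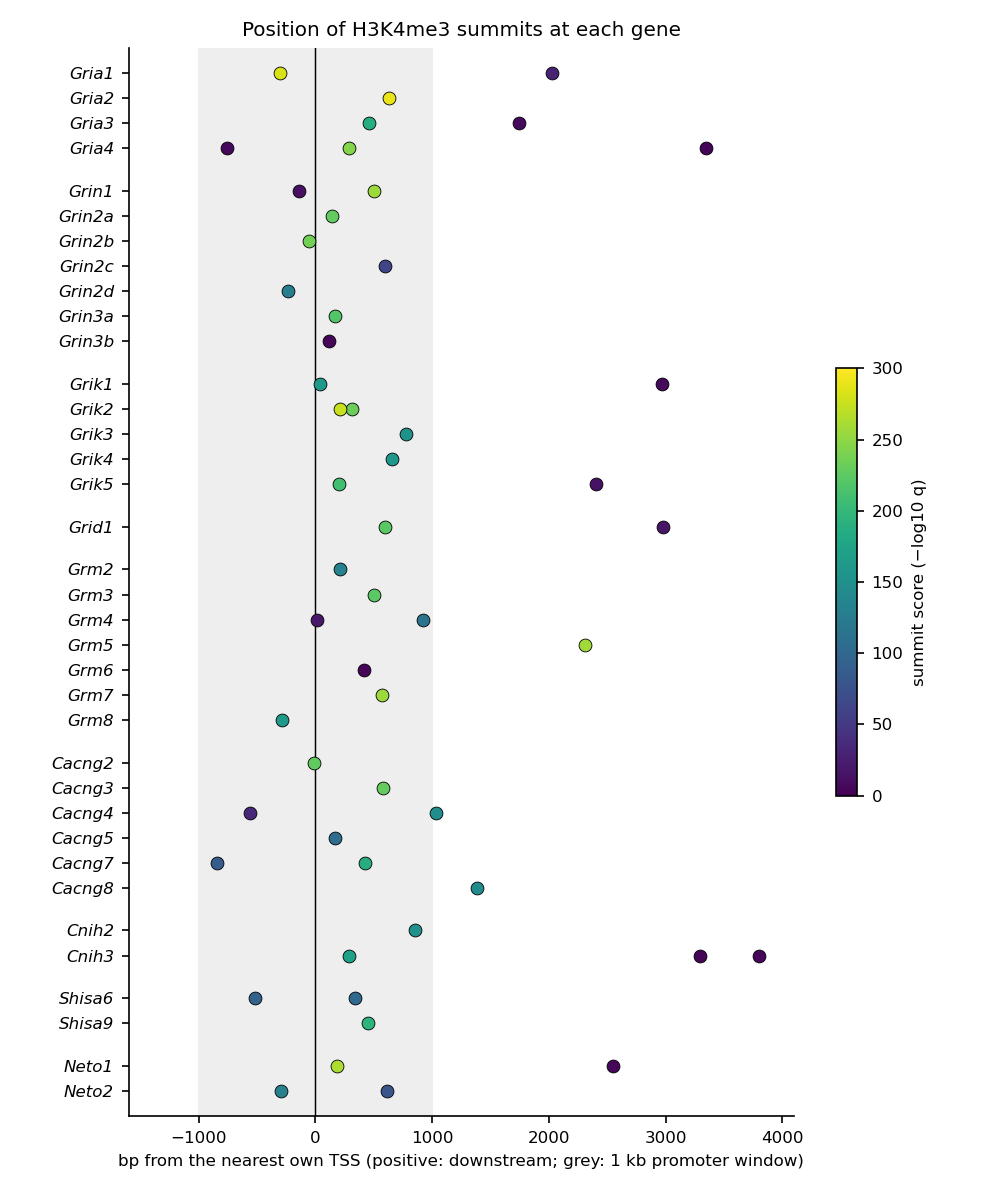
Distance of the summits from the nearest TSS of the same gene, in bp, for the 53 of 69 summits between 1500 bp upstream and 4000 bp downstream; colour gives the score and the grey band the 1 kb promoter window. Most strong summits sit to the right of the TSS. The best summits of Grm4 and Cnih2 fall just inside the window at 920 and 850 bp, and summits of Cacng4, Cacng8 and Grm5 fall outside it at 1033, 1388 and 2308 bp.

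Many of these genes have several annotated TSSs. When TSSs of a gene no more than 1 kb apart were joined into groups, the 36 genes had 82 groups, of which 39 had a summit within 1 kb, or 47.6%, against 33.7% of the groups of all protein-coding genes. Of 27 genes with more than 1 group, 5 had more than 1 marked group, namely Gria1, Gria3, Grin1, Grik2 and Grm8, against 14.5% of all protein-coding genes with several groups. In Gria1, Gria3 and Grm8, however, the same summit lay within 1 kb of both groups, so that only Grin1 and Grik2 had separate summits for separate TSSs. Grik2 had 7 groups and left 5 unmarked. When the outermost TSS alone was considered, rather than its group, marked genes with no summit within 1 kb of it numbered 11 of 34, against 10.1% of all marked genes and 3 of 20 GABA and glycine receptor genes. They comprised Gria1, Gria3, Grin2a, Grin2b, Grin2d, Grm4, Grm8, Cacng3, Cnih3, Shisa9 and Neto1. In 8 of these 11 genes another TSS of the outermost group was within 1 kb of a summit. The outermost group as a whole was unmarked in 3, Grin2b, Grin2d and Grm4, or 8.82% of the 34 marked genes against 6.91% of all marked genes. In Grin2b the summit lay 59 bp from a TSS 1622 bp farther inside the gene.

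**Figure D3:**
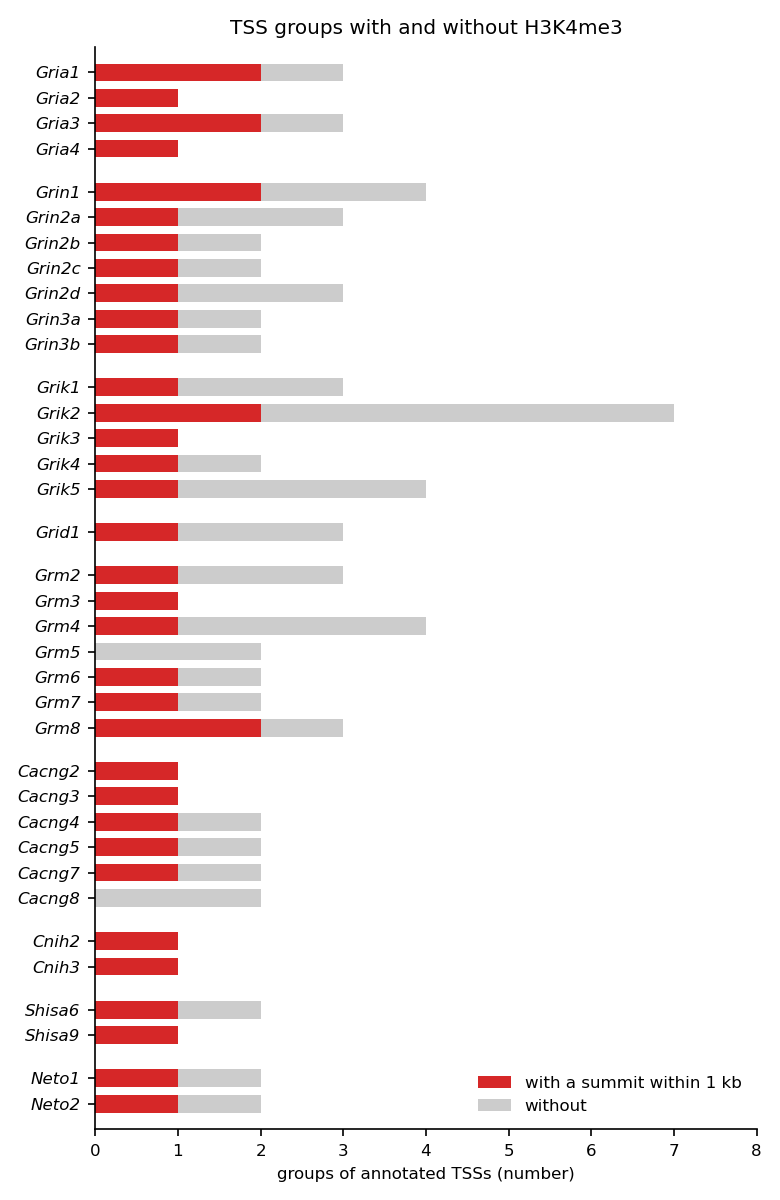
Number of groups of annotated TSSs of each gene with (red) and without (grey) a summit within 1 kb, where TSSs of a gene up to 1 kb apart form a group. Of 82 groups 39 are red, Grik2 has the most groups with 7, and Grm5 and Cacng8 have grey bars only.

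Promoter summits numbered 41 in the 34 marked genes, and 7 genes had at least 2 of them, namely Gria4, Grin1, Grik2, Grm4, Cacng7, Shisa6 and Neto2, against 11.7% of all protein-coding genes. Those of Grin1 and Grik2 were more than 2 kb apart, and 6.78% of all protein-coding genes had such summits. In the other 5 genes the summits lay 1021 to 1270 bp apart.

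Body summits were present in 16 of the 36 genes, against 14.7% of all protein-coding genes. The genes are long, with a median of 124834 bp compared with 17425 bp over all protein-coding genes, and the part of gene length in this share was not tested. The 28 body summits were mostly weak, with a median score of 11.1 and 23 of them below 50. The median of the 5422 body summits of all protein-coding genes was 14.3. Of the 28, 14 lay within 5 kb of a TSS of the same gene and 14 farther away, whereas 42.8% of all body summits lay within 5 kb. A total of 12 lay 1 to 5 kb downstream of the nearest TSS, in 11 genes, among them Gria1 with 28.5 at 2026 bp, Grid1 with 17.6 at 2982 bp and Grik1 with 8.07 at 2966 bp.

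Only 5 body summits reached the median of the list, and they were those of Grm5, Cacng8 and Cacng4 given above and those of Grin2d and Grik4. The summit in Grin2d scored 242 at chr7:45873189 and lay 62 bp downstream of the TSS of Kdelr1, a neighbouring gene whose product retrieves proteins to the endoplasmic reticulum. It was 2760 bp upstream of the nearest TSS of Grin2d and fell inside the gene only because an outer Grin2d TSS is annotated 7949 bp farther upstream than the marked one. The summit in Grik4 scored 140 at chr9:42897635, in intron 1, 46858 bp downstream of the nearest TSS and 35506 bp from the nearest TSS of any other gene. It was the highest body summit more than 5 kb from a TSS of its own gene. In Grin2b a summit of 47.7 stood at chr6:136165832, 6057 bp downstream of the nearest TSS.

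Body summits in exons of the longest coding transcript numbered 10, and 5 of these were in the last exon. The latter belonged to Grin2c with 2.81, Grin2d with 6.20 and 31.3, Grik4 with 17.7 and Cacng8 with 9.74. The Cacng8 and Grik4 summits and the stronger one of Grin2d each lay within 1 kb of a TSS of a noncoding locus, Gm23450, Gm24420 and Gm45441, respectively. Grm5 had weak summits of 10.1 in exon 3 and 6.20 in intron 3, of which the nearer was 372171 bp from any TSS of the gene. The strong Grm5 summit of 257 and a Grik5 summit of 17.2 lay in exons of other transcripts and are not among the 10. In all, 5 of the 28 body summits lay within 1 kb of a TSS of another gene.

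Properties of the genes that the choice did not use were then set beside the scores. The ratio of observed to expected CpG in the 500 bp on each side of the outermost TSS had a median of 0.615 over the 36 genes, between the medians of 0.707 over marked and 0.176 over unmarked protein-coding genes. It ranged from 0.0875 in Grin2d, whose outermost TSS was unmarked, to 1.04 in Shisa6. In the 500 bp centred on the best promoter summits the median was 0.586, compared with 0.701 over all marked genes, and at the body summits it was 0.331. Over the 34 marked genes the best score had a Spearman rho of −0.29 and a Pearson r of −0.34 with the CpG ratio at the summit. Over all 14197 marked genes these were 0.10 and 0.19. With the CpG ratio around the outermost TSS, rho was −0.11 and r −0.09 over the 34 genes. Over all marked genes the latter relation had a rho of 0.27 and an r of 0.34. With gene length, rho was 0.53 and r 0.42 over the 34 genes, and 0.06 and 0.04 over all marked genes. Grm6, Grin3b and Grin2c, which are 15524, 6476 and 18075 bp long, were among the shortest and the lowest. Cnih2, however, was the shortest of all with 5654 bp and scored 151, and Grm2, with 12988 bp, scored 131. Cacng4 and Shisa6, which also scored below the median of the list, were longer, with 62201 and 314240 bp. The points of these relations are genes of 1 list that share its libraries and background, and related genes share sequence, so no p-value is given.

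**Figure D4:**
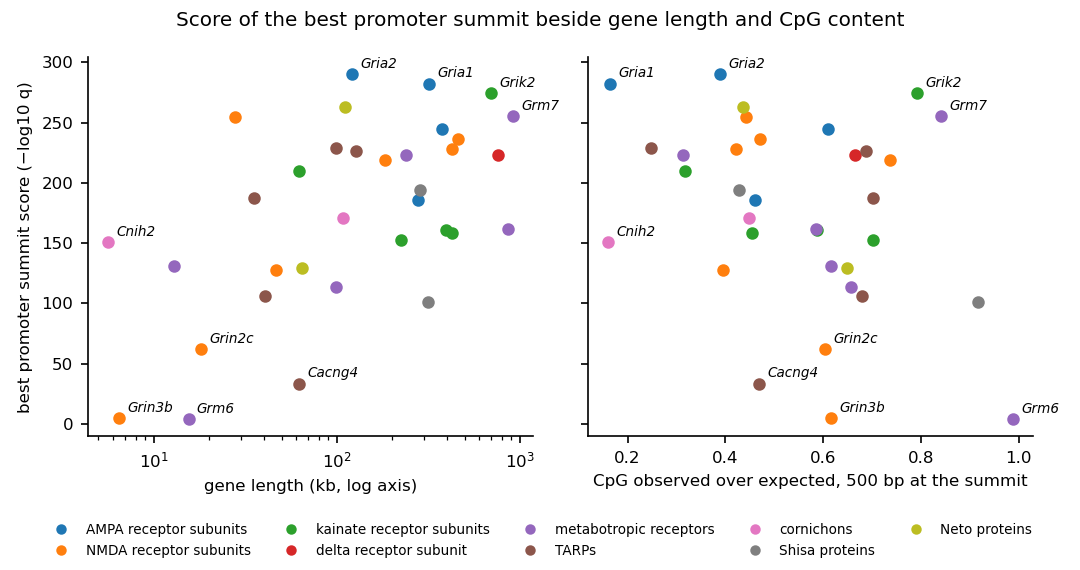
Best promoter summit score of the 34 marked genes against gene length on a log axis (left) and against the ratio of observed to expected CpG in 500 bp at the summit (right), with 1 point per gene coloured by role. The low scores of Grm6, Grin3b and Grin2c belong to short genes, whereas Gria1 and Gria2 combine the highest scores with CpG ratios of 0.164 and 0.389.

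Motifs were searched for on both strands from 250 bp before to 50 bp after the TSS nearest to the best summit, or after the outermost TSS in unmarked genes. The GC box, GGGCGG, was present in 20 of 36 promoters, or 55.6%, against 47.6% of all 21938 promoters of that length and 66.5% of marked ones. The TATA box, TATAAA, was present in Grin2b and Grin3b, or 5.56% against 11% of all and 4.93% of marked promoters, and CCAAT in 9 promoters, or 25% against 35.8% of all and 33.1% of marked ones. The CRE motif, TGACGTCA, and the NRF1 core, CGCATGCG, were found in 0 of 36, against 2.27% and 2.50% of all and 2.96% and 3.14% of marked promoters. Parts of the binding site of REST, a repressor known for silencing neuronal genes outside neurons, were also searched within 1 kb on each side of the TSS. The left part, TTCAGCACC, was present in Grin1, Grin2d, Grm2, Cacng2 and Cacng3, or 13.9% against 2.89% of all and 3.04% of marked promoters. The right part, GGACAGCGC, was present in Gria2, Grin2a and Cnih2, or 8.33% against 2.55% of all and 3.41% of marked ones. In the shorter window used for the other motifs, the left part was present in Cacng2 alone and the right part in Cnih2 alone. That was 2.78% each, against 0.409% and 0.909% of marked promoters. Within 1 kb on each side, the GC box was present in 32 of 36 genes, TATAAA in 17 and CCAAT in 34. The shares of marked promoters were 89.7%, 50.1% and 89.9%, respectively. None of these motifs contains another.

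For each match to a part of the REST site, the 27 bases holding both parts at their usual spacing were read and the mismatches in the other part counted, a comparison chosen after the matches had been seen. In Gria2 and Grin1 the other part had 1 mismatch, and it had 4 in a match of Cacng3 and 5 to 8 elsewhere. At most 2 mismatches were found in these 2 of 36 genes and in 62 of all 21938 promoters, or 0.283%. The sequences are shown on the strand of the motif, with the part that matched in full in capitals.
Gria2 (chr3:80802986-80803012, plus strand): gattttagcaccgcGGACAGCGCtttg
Grin1 (chr2:25319011-25319037, minus strand): cgcTTCAGCACCtcggacagcacccgc
Cacng3 (chr7:122670943-122670969, plus strand): cccTTCAGCACCacggacctccaacga
The Gria2 match lies inside the promoter printed above, on the other strand, 1053 bp upstream of the best summit. The Grin1 match lies 432 bp upstream of the summit, 71 bp downstream of the TSS nearest to it. A match describes letters in the genome, and binding of REST was not measured.

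The other genes of glutamate signalling were marked about as often. Of 9 genes for vesicular and plasma membrane glutamate transporters and for enzymes of glutamate metabolism, 8 were marked, with a median best score of 177 and Slc17a8 as the exception. Of 17 genes for postsynaptic partners, such as the scaffold and adaptor proteins that anchor these receptors, 17 were marked, with a median of 187. For both lists together, 25 of 26 genes were marked, and 20 of 26 scored at or above the median of the list, compared with 29 of the 36 receptor and auxiliary genes. Of 25 genes for GABA and glycine receptor subunits, 20 were marked, or 80%, with a median of 203. Those without a promoter summit were Gabra6, Gabrr1, Gabrr2, Gabrr3 and Glra4. The highest score in that list was 258, below the 290 of Gria2, the 282 of Gria1, the 275 of Grik2 and the 263 of Neto1, and its lowest was 73.2, above those of Grin3b, Grm6, Cacng4 and Grin2c.

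**Figure D5:**
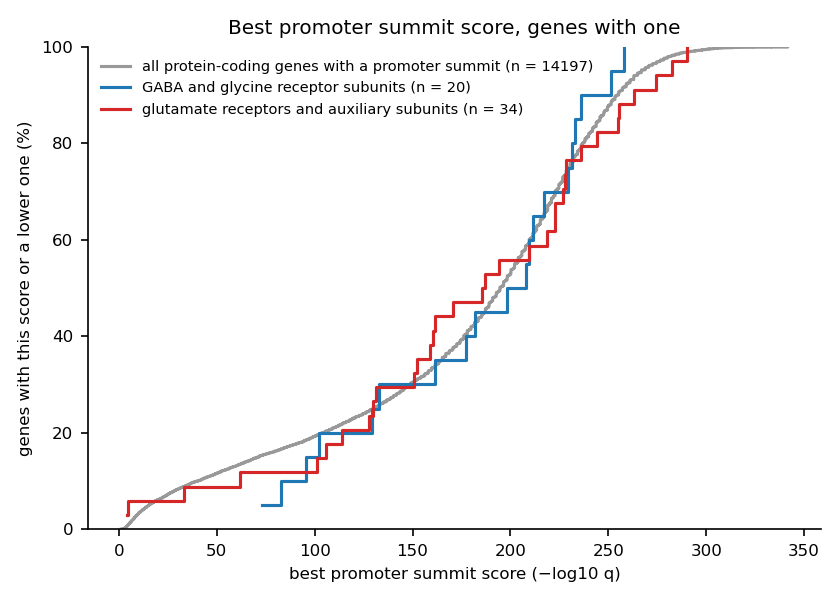
Cumulative share of marked genes, in percent, against the best promoter summit score, for the 34 marked glutamate receptor and auxiliary genes (red), 20 marked GABA and glycine receptor genes (blue) and all 14197 marked protein-coding genes (grey). The medians are 186, 203 and 195, and the red curve reaches farther than the blue one at both ends, from 3.89 to 290 against 73.2 to 258.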

How the data were processed

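H3K4me3 ChIP-seq of WT amygdala was used as deposited. According to the methods of the study, chromatin was cut with micrococcal nuclease without crosslinking, and reads that mapped uniquely to mm10 with Bowtie were used to call peaks with MACS2 (version 2.1.0.20140616 in the submitters' processing notes) against input. The authors deposited 1 list for both WT mice, in which every line spans 1 bp and carries a score without a named scale, taken to be the −log10 q-value because the scores end just above the stated limit. Depth per summit is therefore unknown, and no normalization with the spiked-in nucleosomes enters the list. No column was left out, as 0 per-sample columns were unmatched.

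The 24139 of 24162 summits that fell on an autosome, X or Y were matched to TSSs of GENCODE release M21 on GRCm38, the same assembly as mm10, and sequences were read from the RefSeq copy of that genome. The promoter window reached 1 kb to each side of a TSS. The matching was tested on simulated summits. Shares and medians are set beside those of all protein-coding genes, with no p-value, because 1 pooled list has no replicates. All 36 genes are named, other genes where they share a summit or lack one in a short list, and promoters were printed for the highest, lowest, farthest separated and unmarked genes, none from chromosome 18 and none mostly in a UTR. The genes and lists were chosen with earlier results of these data known. Single values of glial markers are not reported here. Alternatives were other windows, score limits, TSS sets and joined summits. Computations used Python 3.11.15, numpy 2.4.6, scipy 1.17.1, pysam 0.24.0 and matplotlib 3.10.9.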

Additional observations from a re-analysis of the deposited data

How the results depend on the processing

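Marked genes numbered 25 with a window of 500 bp (Gria2, Grin2c, Grik3, Grik4, Grid1, Grm7, Cacng3, Cacng4 and Cnih2 lost). The number was 36 with 3 kb, 29 at scores from the list median (against 52% of all protein-coding genes) and 32 at scores of at least 10. It was 33 with TSSs of coding transcripts (Neto1 lost) and 31 with the basic annotation set (Grin2b, Cacng3 and Neto1 lost). With the outermost TSS alone it was 23. There 11 of the 34 marked genes were lost, against 10.1% of all marked protein-coding genes. The contrast of 94.4% with 64.7% given above is thus smaller with the outermost TSS. Shares of all protein-coding genes under the other windows and TSS sets are not given here. Joined summits and added RefSeq TSSs, the latter chosen after seeing the data, left the number of marked genes at 34. The median best score, 186, became 210 at scores from the list median, 161 with the outermost TSS and 171 with the basic set, where fewer genes were counted. Genes with at least 2 promoter summits, 7, became 1 with 500 bp, 15 with 3 kb, 1 from the list median and 4 with the outermost TSS. Those with promoter summits over 2 kb apart, 2, became 1 with 500 bp, 9 with 3 kb, 1 from the list median, 1 with coding TSSs, 0 with the outermost TSS, 1 with the basic set and 4 with RefSeq TSSs. Genes with a body summit, 16, became 10 with 3 kb, 5 from the list median and 10 at scores of at least 10. With 3 kb, the best scores of Grin2d, Cacng4, Grm5 and Cacng8 were 242, 146, 257 and 144, and the Grin2d summit is the one beside Kdelr1. With 500 bp, those of Grin1 and Grm4 were 12.8 and 18.3.

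No paired analysis was possible because the list pools both WT mice, and for the same reason no replicate was left out. Scores depend on depth and input, which the list does not give, so a gene with no summit was not detectable by the authors' limit and need not lack the mark.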

Other observations

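Among the other genes of glutamate signalling, those for postsynaptic partners differed from the receptor genes in how many promoter summits they carried. Body summits were present in 8 of the 17 partner genes and in 16 of the 36 receptor and auxiliary genes. Of the 17 genes, 11 had at least 2 promoter summits and 10 had promoter summits more than 2 kb apart, compared with 7 and 2 of the 36 receptor and auxiliary genes, and with 11.7% and 6.78% of all protein-coding genes. Below the median score of all summits were 5 of these genes, named after their values had been seen, namely Dlg4, Homer2, Homer3, Grip2 and Camk2b, with scores of 82.7, 94.2, 82.0, 101 and 31.9. These counts describe 1 pooled list and were not tested. Promoter summits were counted around every annotated TSS of a gene. The number of TSSs of the partner genes is not given here, and its part in the difference was not tested.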
